A study of Mus musculus with 4 samples.

Results

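The 6 genes described here encode the TGF-beta ligands (Tgfb1, Tgfb2 and Tgfb3), the signalling receptors (Tgfbr1 and Tgfbr2) and a matrix protein induced by the pathway (Tgfbi). They were taken by gene symbol from the 32285 genes of the count tables, and all 6 were found. The data were Visium spatial transcriptomes, where RNA of a tissue section is captured by barcoded spots on the slide below it. A spot is a small region that can hold several cells. There was 1 section from each of 4 tumors of MC38, a mouse colon carcinoma line, grown under the skin of female mice aged 8 to 12 weeks after injection of 500000 cells. The 2 CC075F1 sections came from C57BL/6J x CC075/UncJ hosts, which the study classes as responders to anti-PD-1, and the 2 CC080F1 sections came from C57BL/6J x CC080/TauUncJ hosts, classed as non-responders. Every host thus carried 1 C57BL/6J parental genome and 1 from a Collaborative Cross strain, and every mouse had been given isotype control antibody once (200 µg, when the tumor had reached 75 to 110 mm3), 48 hours before the tumor was taken. Tumors treated with anti-PD-1 were not analysed here.

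TGF-beta ligands are secreted in a latent form that is held in the matrix until integrins or proteases release it. The released ligand binds the type II receptor TGFBR2, which recruits and phosphorylates TGFBR1, and SMAD2 and SMAD3 then carry the signal to the nucleus. In tumors the pathway is known for driving collagen and other matrix genes in fibroblasts and for restraining cytotoxic T cells.

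The genes lie apart in the genome (GRCm38, GENCODE vM21). Tgfb1 (ENSMUSG00000002603) was at chr7:25687002-25705077 on the plus strand, Tgfb2 (ENSMUSG00000039239) at chr1:186622792-186705989 on the minus strand and Tgfb3 (ENSMUSG00000021253) at chr12:86056745-86079041 on the minus strand. Tgfbr1 (ENSMUSG00000007613) was at chr4:47353222-47414931 on the plus strand, Tgfbr2 (ENSMUSG00000032440) at chr9:116084293-116175360 on the minus strand and Tgfbi (ENSMUSG00000035493) at chr13:56609523-56639562 on the plus strand.

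The 250 bases before the start of Tgfb1 and of Tgfbr2 are shown because these genes moved in opposite directions between spot classes set by collagen type, as described further on. Both come from RefSeq on GRCm38.p6 and are written 5′ to 3′ on the strand of the gene, at chr7:25686752-25687001 (plus) and chr9:116175364-116175613 (minus). Capitals mark a GC box (GGGCGG or its complement CCGCCC) or the core of a SMAD site (CAGAC or its complement GTCTG).
Tgfb1: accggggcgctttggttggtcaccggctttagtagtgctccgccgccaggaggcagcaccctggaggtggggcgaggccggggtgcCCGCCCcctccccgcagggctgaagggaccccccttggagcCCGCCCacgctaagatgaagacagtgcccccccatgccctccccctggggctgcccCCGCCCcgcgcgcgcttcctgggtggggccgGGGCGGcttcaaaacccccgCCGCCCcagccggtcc
Tgfbr2: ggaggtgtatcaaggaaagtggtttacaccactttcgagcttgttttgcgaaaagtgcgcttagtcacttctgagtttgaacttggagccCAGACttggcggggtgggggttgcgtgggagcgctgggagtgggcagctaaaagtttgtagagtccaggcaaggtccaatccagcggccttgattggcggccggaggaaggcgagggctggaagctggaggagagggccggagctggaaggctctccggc
The Tgfb1 window held 5 GC boxes and no SMAD core at a GC content of 75.2%, and the Tgfbr2 window held 1 SMAD core and no GC box at 58.4%. Windows were found for 5 of the 6 genes, with 2 for Tgfbr1. The Tgfb2 window held 2 SMAD cores. The Tgfbi window, whose end overlaps the start of the gene in GENCODE, held 2 SMAD cores and 1 GC box, the first Tgfbr1 window held 2 GC boxes and the second 1 SMAD core. None of the 6 windows held an AP-1 site (TGANTCA on either strand). These short words are common by themselves, since CAGAC was in 42.2%, GGGCGG in 32.7% and TGANTCA in 6.75% of 32851 promoter windows of this length.

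Depth was high in every section, with 2710 to 3276 spots under tissue and 82594649 to 146460975 unique molecular identifiers (UMIs, each marking 1 captured RNA molecule). CC075F1 replicate 2 stood apart. Its summed skeletal muscle markers reached 153 counts per 1000000 UMIs of the section (CPM) against 3.88 to 17.1 in the other sections, and the 28 spots with over 1% of their UMIs from muscle, keratinocyte or fat markers were all in it. Summed MC38 and epithelial markers were detected in every section, at 123 to 268 CPM.

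Among the ligands, Tgfb1 and Tgfb3 were captured in most spots while Tgfb2 was near the limit of the assay. Tgfb1, the ligand known best as a product of immune and stromal cells, stood at 55.9 and 47.1 CPM in replicates 1 and 2 of CC075F1 and at 65.8 and 61.8 CPM in those of CC080F1. Its means ± SD over 2 sections were 51.5 ± 6.19 CPM (CC075F1) and 63.8 ± 2.79 CPM (CC080F1). Tgfb2 stood at 0.751 and 0.717 CPM in CC075F1 and at 1.36 and 1.33 CPM in CC080F1, which rested on 62, 105, 127 and 150 UMIs. Tgfb3, a ligand known from mesenchymal tissue, stood at 72.0 and 17.9 CPM in CC075F1 and at 61.7 and 81.4 CPM in CC080F1. CC075F1 replicate 2 was far below the other sections for this gene, so that CC075F1 averaged 44.9 ± 38.2 CPM and CC080F1 71.5 ± 13.9 CPM (SD, n = 2).

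The receptors were also lowest in CC075F1 replicate 2. Tgfbr1, the signalling type I receptor kinase, stood at 50.3 and 28.7 CPM in CC075F1 and at 46.8 and 40.3 CPM in CC080F1. Tgfbr2, the ligand-binding type II receptor kinase, stood at 130.0 and 63.5 CPM in CC075F1 and at 129.8 and 108 CPM in CC080F1. Both receptors overlapped between the strains. Tgfbi, which encodes a secreted matrix protein that binds integrins and collagens, stood at 244 and 253 CPM in CC075F1 and at 266 and 302 CPM in CC080F1, and varied least among the sections. These levels are not scaled by transcript length and were compared within genes only.

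**Figure D1:**
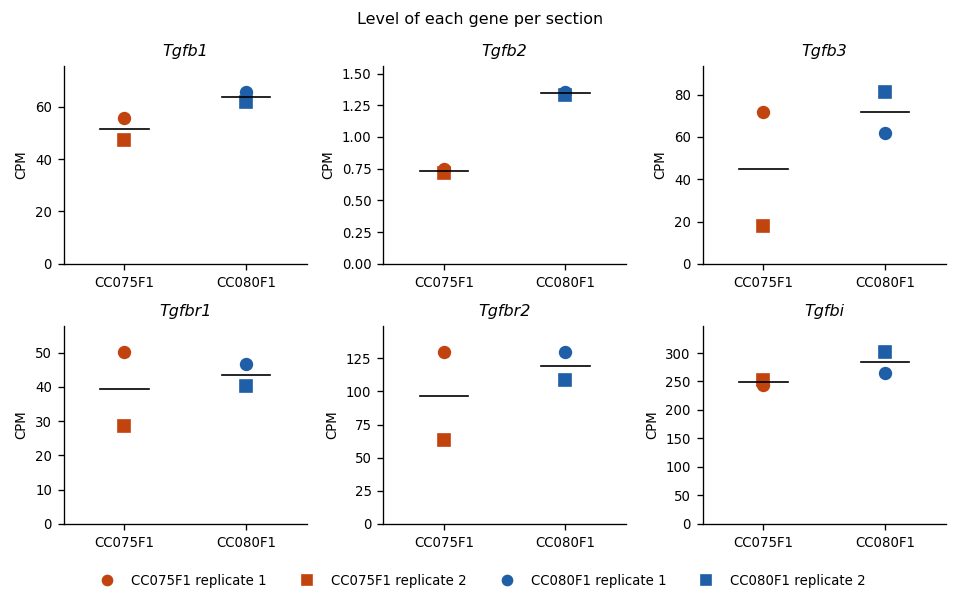
Each panel plots 1 gene, with its level in CPM on the y axis and the host strain on the x axis. Circles are replicate 1, squares replicate 2 and bars the mean of 2 sections. Tgfb3, Tgfbr1 and Tgfbr2 were lowest in CC075F1 replicate 2, and Tgfb3 there was 17.9 CPM against 61.7 to 81.4 CPM elsewhere.

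No difference between the strains was detected for any of the 6 genes, with the sections as the replicates and 2 sections per strain. In edgeR's quasi-likelihood test on section sums (log2 of CC075F1 over CC080F1), 0 of 6 genes passed an adjusted p of 0.05, and 0 of 6 had an unadjusted p under 0.05 or passed in DESeq2, beside 14 of 15572 genes called (0.0899%). The log2 difference was 0.01 for Tgfb1 (SE 0.19, adjusted p = 0.995), -0.54 for Tgfb2 (SE 0.39, 0.830) and -0.51 for Tgfb3 (SE 0.44, 0.832). It was 0.13 for Tgfbr1 (SE 0.18, 0.891), -0.05 for Tgfbr2 (SE 0.24, 0.968) and 0.14 for Tgfbi (SE 0.30, 0.920). The signs for Tgfb1, Tgfbr1 and Tgfbi go against their CPM because the test scaled by TMM factors. With library size alone the median of all genes lay at -0.31, Tgfb1 at -0.31, Tgfbr1 at -0.14 and Tgfbi at -0.19. For Tgfb3 the value was -1.43 without CC075F1 replicate 1 (adjusted p = 0.0862) and 0.05 without CC075F1 replicate 2. Of 43 other genes of the pathway, covering ligand latency, coreceptors, SMAD proteins with their regulators and common target genes, 42 were tested and 0 passed in edgeR (4 at an unadjusted p under 0.05, 1 in DESeq2), with a median log2 difference of -0.12 beside -0.02 over all genes. In sums over spots, fewer cells of a type and less RNA per cell cannot be told apart.

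The share of spots in which a gene was seen followed the levels. Each spot was thinned to 10000 UMIs, which left out 53 to 205 shallower spots per section, to set the sections at equal depth. Tgfbi was then seen in 87.9% and 88.8% of CC075F1 spots and in 90.2% and 90.1% of CC080F1 spots, and Tgfbr2 in 71.1% and 48.6% against 71.6% and 63.0%. Tgfb3 was seen in 47.3% and 17.4% of CC075F1 spots and in 42.8% and 49.2% of CC080F1 spots. Thinned shares of Tgfb1 ran from 38.1% to 48.2%, those of Tgfbr1 from 26.6% to 40.1% and those of Tgfb2 from 0.851% to 1.35%. Before thinning, Tgfb3 was seen in 51.4% of the spots of CC075F1 replicate 2 and in 76.7% to 80.7% of those of the other sections, and this section had the deepest spots, with a median of 41740 UMIs against 31139 to 34740.

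Within sections, Tgfbi had the highest spatial clustering of the 6 genes in 3 of 4 sections and Tgfb3 in CC075F1 replicate 1. Moran's I, which is near 0 for a gene scattered at random over neighbouring spots, was 0.293, 0.455, 0.294 and 0.400 for Tgfbi, in the order of CC075F1 replicate 1, CC075F1 replicate 2, CC080F1 replicate 1 and CC080F1 replicate 2. For Tgfb3 it was 0.303, 0.132, 0.243 and 0.336, and for Tgfbr2 it ran from 0.086 to 0.186. Tgfb1 ran from 0.047 to 0.164 and Tgfbr1 from 0.046 to 0.136, and in CC075F1 replicate 2 both lay above Tgfb3.

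The genes most like each member across spots differed between the ligands. Likeness was Pearson's r of depth-corrected residuals over the spots of a section, averaged over 4 sections and compared over 7083 genes, or 7084 for Tgfb2. Spots of a section share a library and neighbours share tissue, so these values are descriptions, and those near 0 in sparse genes carry no finding. Tgfb3 was most like Col3a1 (mean r 0.30), which encodes the chain of collagen III, then Col6a1 (0.27), a collagen VI chain, and Cilp (0.26). Tgfbr2 was most like Col6a1 (0.21), Col3a1 (0.21) and Col6a2 (0.20). Tgfb1 was most like Igfbp7 (0.21), known from vessels, Sparc (0.20), a matrix-associated protein, and Tmsb4x (0.20), an actin-binding peptide. Tgfb2 was most like Acta2 (0.15), the smooth muscle actin, Col1a2 (0.13) and Bgn (0.13), a matrix proteoglycan. Tgfbr1 was most like Tyrobp (0.20), Cd74 (0.19) and Lyz2 (0.19), genes known from myeloid and antigen-presenting cells. Tgfbi was most like Ctsc (0.44), a lysosomal protease, Tmsb4x (0.43) and the MHC class II gene H2-Ab1 (0.37).

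Against summed lists, Tgfb3 had a mean r of 0.30 with collagen III and 0.00 with collagen I (Col1a1 and Col1a2), where its sections ran from -0.14 to 0.29. Tgfbi was at 0.19 with collagen I (0.15 to 0.27 over the sections) and at -0.01 with collagen III, where its sections ran from -0.26 to 0.20. Endothelial markers gave 0.22 with Tgfb1 and 0.22 with Tgfbi, and -0.01 with Tgfb3. Macrophage markers gave 0.21 each with Tgfb3, Tgfbr1 and Tgfbi, although for Tgfbi the sections ran from -0.08 to 0.52. Among the genes themselves, the highest pairs were Tgfb1 with Tgfbi (0.18), Tgfbr1 with Tgfbi (0.14) and Tgfb3 with its receptor gene Tgfbr2 (0.11).

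**Figure D2:**
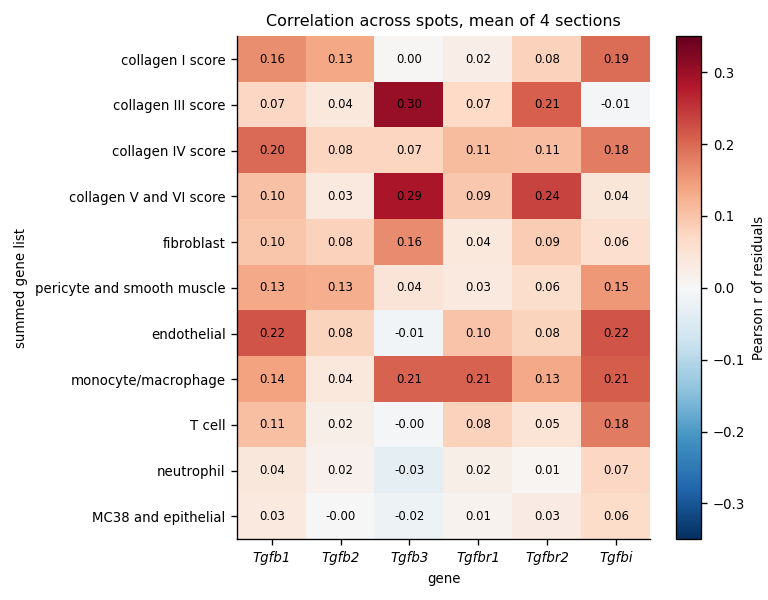
Each cell is the mean over 4 sections of Pearson's r across spots between 1 gene (columns) and a summed gene list (rows), with red for positive and blue for negative values. Tgfb3 was at 0.30 with collagen III and 0.00 with collagen I, and Tgfbi at -0.01 and 0.19.

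Collagen-rich spots held more Tgfb3 and more Tgfbr2. Spots were ranked within 10 strata of depth by the share of their UMIs from Col1a1, Col1a2 and Col3a1, and the top and bottom 25% were summed per section. Tgfb3 went from 49.1 to 91.5 CPM in CC075F1 replicate 1, from 13.9 to 22.8 in CC075F1 replicate 2, from 40.7 to 78.5 in CC080F1 replicate 1 and from 49.3 to 107 in CC080F1 replicate 2. The top was above the bottom in 4 of 4 sections, by 1.64 to 2.17 times, including the section where the gene was low throughout. Tgfbr2 went from 112 to 147 and from 50.0 to 75.8 CPM in CC075F1, and from 116 to 141 and from 88.8 to 125 CPM in CC080F1, again upward in 4 of 4 sections.

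With section as a term, edgeR called 2 of 6 genes, beside 321 of 13462 genes in all (2.38%; 0.81% higher and 1.57% lower in the top 25%). The log2 difference was 0.77 for Tgfb3 (SE 0.09, adjusted p = 0.0348) and 0.29 for Tgfbr2 (SE 0.05, adjusted p = 0.0484). The other genes gave 0.14 for Tgfb1 (adjusted p = 0.413), 0.53 for Tgfb2 (0.302), 0.16 for Tgfbr1 (0.122) and -0.02 for Tgfbi (0.945), and the median of the 6 was 0.22 beside -0.01 over all genes. Tgfbi went in opposite directions, with a ratio of 0.767 in CC075F1 replicate 1, 1.57 in CC075F1 replicate 2, 1.02 in CC080F1 replicate 1 and 1.18 in CC080F1 replicate 2. Of the 40 other pathway genes that remained without the ranking collagens, 39 were tested, with a median of 0.13. Among them 19 had an unadjusted p under 0.05 in edgeR, and 11 passed in DESeq2, beside 1092 of 21470 genes in all. After adjustment in edgeR, 0 rose and 2 fell. These were Tgif1, a SMAD corepressor (-0.63, adjusted p = 0.0484), and Cdkn1a, a cell cycle inhibitor (-0.59, adjusted p = 0.0498). With library size alone 530 genes were called higher and 36 lower, against 109 and 212. Without CC080F1 replicate 1 or 2 no gene was called at all (2382 and 1682 at an unadjusted p under 0.05), with Tgfb3 at 0.75 (adjusted p = 0.200) and 0.72 (0.348) and Tgfbr2 at 0.33 (0.200) and 0.28 (0.348), and Tgfbr2 also missed the threshold without CC075F1 replicate 2 (0.29, adjusted p = 0.0780).

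Of the 3 collagens behind this ranking, Col3a1 was not spread like Col1a1 relative to the tissue edge, although both were higher there in CC075F1 replicate 2. Col3a1 gave 92.2%, 54.1%, 95.1% and 86.4% of the ranking UMIs in the same section order. Its edge over interior ratios of 0.733, 2.47, 0.831 and 0.958 were below 1 in 3 of 4 sections, whereas those of Col1a1, at 4.51, 8.73, 1.67 and 6.02, were above 1 in all 4. The ranking was therefore repeated for each collagen type, a choice made after these values were seen.

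Ranked by Col3a1 alone, Tgfb3 (0.91, adjusted p = 0.0375) and Tgfbr2 (0.31, adjusted p = 0.0458) were called in edgeR, beside 2.65% of 13453 genes (0.892% higher, 1.76% lower). Ranked by Col1a1 and Col1a2 alone, a different set was called, beside 10.5% of 13515 genes (6.86% higher, 3.65% lower). Tgfb1 (0.39, adjusted p = 0.00537), Tgfb2 (1.10, 0.013) and Tgfbi (0.36, 0.00513) rose with collagen I, and the values were -0.11 for Tgfb3 (0.347), 0.01 for Tgfbr2 (0.890) and 0.03 for Tgfbr1. The collagen I ratios of Tgfbi were 1.26, 1.69, 1.22 and 1.31 over the 4 sections and those of Tgfb1 were 1.37, 1.78, 1.23 and 1.27, so that all 4 sections lay on the same side. Ranked by the basement membrane collagen IV (Col4a1 and Col4a2), Tgfb1 (0.39, adjusted p = 0.000123), Tgfb2 (1.22, 0.0011), Tgfbr1 (0.25, 0.00242) and Tgfbi (0.25, 0.00505) rose, beside 24.3% of 13509 genes (12.4% higher, 11.9% lower), and Tgfb3 (0.10, 0.289) and Tgfbr2 (0.09, 0.163) did not pass. Ranked by collagens V and VI, Tgfb3 (0.75, adjusted p = 0.0124) and Tgfbr2 (0.32, 0.0251) were called, beside 9.74% of 13441 genes (3.21% higher, 6.53% lower).

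A direct test of the difference set spots in the upper part for Col3a1 and the lower part for collagen I (the Col3a1 side) against spots with the converse (the Col1 side), each split at the median within depth strata. This comparison was also added after the data were seen. Each side held 802, 579, 677 and 727 spots in the section order above. It called 4 of the 6 genes, 2 in each direction.

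Tgfb3 stood on the Col3a1 and Col1 sides at 85.2 and 53.2 CPM in CC075F1 replicate 1, 20.2 and 14.9 in CC075F1 replicate 2, 75.0 and 49.2 in CC080F1 replicate 1 and 105 and 56.9 in CC080F1 replicate 2. Tgfbr2 stood at 143 and 117, 67.3 and 60.3, 138 and 124, and 116 and 100.6 CPM in the same order. Ligand and receptor were thus above on the Col3a1 side in every section. Tgfb1 stood at 48.6 and 66.8, 40.3 and 48.5, 63.3 and 69.2, and 61.8 and 64.1 CPM, below on the Col3a1 side in every section. Tgfbi stood at 218 and 287, 211 and 271, 245 and 289, and 275 and 333 CPM, and was likewise below in 4 of 4.

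In edgeR with section as a term, 4 of 6 genes were called, beside 1299 of 13416 genes (9.68%; 4.46% higher and 5.23% lower on the Col3a1 side). The log2 difference was 0.66 for Tgfb3 (SE 0.06, adjusted p = 0.000449), 0.19 for Tgfbr2 (SE 0.04, 0.0169), -0.33 for Tgfbi (SE 0.03, 0.000902) and -0.24 for Tgfb1 (SE 0.05, 0.025). Tgfb2 (-0.57, 0.163) and Tgfbr1 (0.05, 0.659) did not pass. Tgfb3 and Tgfbi passed whichever section was left out. Tgfb1 missed the threshold without CC075F1 replicate 1 (-0.17, adjusted p = 0.0663) or 2 (-0.24, 0.0640), and Tgfbr2 without CC075F1 replicate 1 (0.15, 0.0599) or CC080F1 replicate 2 (0.20, 0.0759).

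The sides also differed in collagen amount, place and cell type. The 3 ranking collagens gave 0.157%, 0.0364%, 0.253% and 0.182% of UMIs on the Col3a1 side, in the section order above. They gave 0.0839%, 0.0257%, 0.168% and 0.122% on the Col1 side. The type of collagen and its amount are therefore not told apart by this comparison. Edge spots made up 12.0%, 8.12%, 20.4% and 7.57% of the Col3a1 side and 34.0%, 18.0%, 43.6% and 35.5% of the Col1 side in the section order above. In interior spots alone, Tgfb3 was at 0.60 (adjusted p = 0.000138), Tgfbi at -0.31 (0.00021), Tgfb1 at -0.22 (0.0159) and Tgfbr2 at 0.15 (0.0518). On the Col3a1 side 5 of 6 endothelial and 5 of 6 pericyte and smooth muscle markers were lower, at median log2 differences of -0.69 and -0.87. Of 8 fibroblast markers 2 were higher and 4 lower there, and 0 of 8 macrophage markers passed in edgeR (3 at an unadjusted p under 0.05, 0 in DESeq2). The part of these cell types in the result was not tested.

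**Figure D3:**
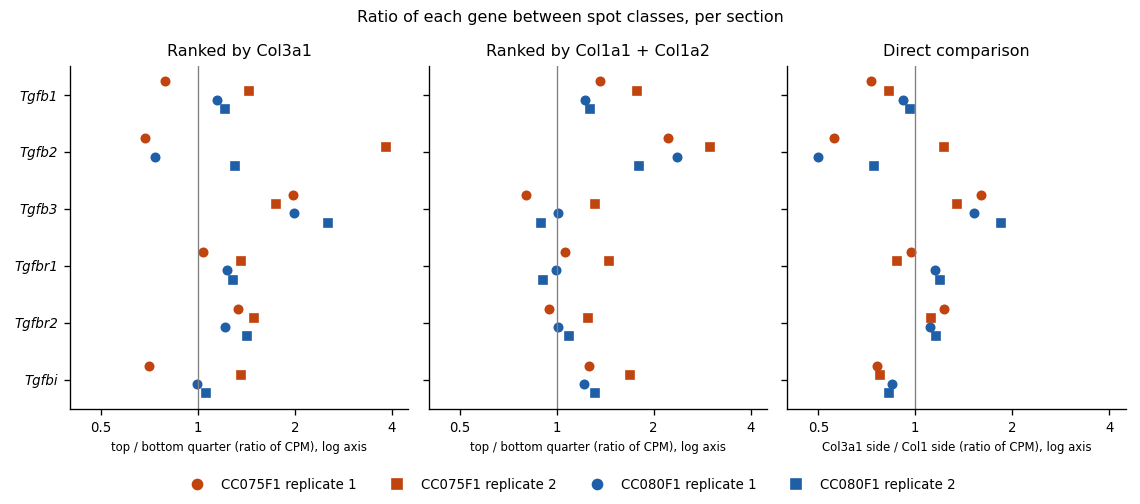
Points are ratios of CPM per section on a log axis for the 6 genes (rows), between the top and bottom 25% of spots by Col3a1 (left) or by Col1a1 and Col1a2 (middle), and between the Col3a1 and Col1 sides (right). Circles are replicate 1 and squares replicate 2. On the right, Tgfb3 and Tgfbr2 lie above 1 and Tgfb1 and Tgfbi below 1 in 4 of 4 sections.

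Most other pathway genes that were called stood on the Col1 side. Of 39 other pathway genes tested, 4 were higher and 14 lower on the Col3a1 side, or 46.2% beside 9.68% of all genes, with a median of -0.17 beside 0.0047. The largest falls among them were Lox, which crosslinks collagen (-2.78, adjusted p = 0.00155), Tagln, a smooth muscle actin-binding protein (-2.12, 0.00239), the matrix protein gene Postn (-2.12, 0.000291), Ltbp2 (-1.65, 0.0086) and the matricellular gene Ccn2 (-1.50, 0.00338), all in edgeR. Tagln and Postn are also counted above, among the pericyte and smooth muscle markers and the fibroblast markers. The 4 genes higher on the Col3a1 side, whose calls depended on single sections, were Smad3, the signal transducer (0.32, adjusted p = 0.0156), Ltbp3, which holds latent ligand in the matrix (0.25, 0.0463), the cell cycle inhibitor Cdkn2b (0.25, 0.0166) and Pmepa1, a negative regulator (0.12, 0.0471). With each section left out in turn, in the section order above, the adjusted p in edgeR was 0.0680, 0.0219, 0.0294 and 0.0597 for Smad3 and 0.113, 0.0502, 0.0344 and 0.144 for Ltbp3. It was 0.0613, 0.0502, 0.00515 and 0.0795 for Cdkn2b and 0.106, 0.0717, 0.0938 and 0.248 for Pmepa1, so that Pmepa1 missed the threshold every time. Of the 10 latency and activation genes 1 rose and 4 fell. Besides Ltbp2 these were Thbs1 (-0.69, adjusted p = 0.00902), Lrrc32 (-0.50, 0.0303) and Nrros (-0.18, 0.0397), named after their values were seen.

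The collagen effects were not shown to differ between the strains. For the strain by collagen interaction in edgeR, 0 of 14083 genes passed, with 203 at an unadjusted p under 0.05 and 0 of the 6 genes among them. For the direct comparison of collagen types 0 of 6 passed, with 2 at an unadjusted p under 0.05, beside 98 of 13969 genes (0.702%), and Tgfb1 passed without CC075F1 replicate 2 (-0.31, adjusted p = 0.0413).

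Spots with Cd8a, which encodes the coreceptor chain of cytotoxic T cells, were set against the same number of spots without it, matched one to one on total UMIs within each section. There were 812 and 762 such spots in CC075F1 and 209 and 114 in CC080F1. A spot without a Cd8a UMI may still hold such a cell, yet the classes differed in T cells, since 6 of 6 T cell markers other than Cd8a were higher in Cd8a spots at a median of 0.58. None of the 6 genes passed, and Tgfbi came nearest.

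Tgfbi stood in Cd8a spots and matched spots at 253 and 240.1 CPM in CC075F1 replicate 1, 288 and 243 in CC075F1 replicate 2, 282 and 281 in CC080F1 replicate 1 and 396 and 283 in CC080F1 replicate 2. Cd8a spots were above in 4 of 4 sections, by between 1.01 and 1.40 times, with little gap in both first replicates. Tgfb3 stood at 72.2 and 69.5, 18.3 and 18.2, 71.6 and 58.3, and 66.5 and 78.7 CPM in the same order, and so went both ways. Tgfb1 stood at 59.2 and 54.5, 52.3 and 45.7, 69.2 and 70.2, and 64.6 and 63.2 CPM.

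In edgeR 0 of 6 genes were called, with 1 at an unadjusted p under 0.05 (Tgfbi) and 0 in DESeq2, beside 423 of 12943 genes (3.27%; 1.75% higher and 1.52% lower). The log2 difference of Tgfbi was 0.14 (SE 0.04, adjusted p = 0.0662). Leaving out CC075F1 replicate 2 took the calls over all genes to 105, and leaving out CC080F1 replicate 1 to 263. Tgfbi passed in edgeR with library size alone (0.19, adjusted p = 0.0139), with no filter on low counts (0.14, 0.000629), without depth matching (0.15, 0.0193) and when spots were matched on collagen and edge class as well (0.14, 0.0286). With 1 section left out, it passed only without CC075F1 replicate 1 (0.18). It missed the threshold without CC075F1 replicate 2 (0.13), CC080F1 replicate 1 (0.18) or CC080F1 replicate 2 (0.08). The other genes gave 0.07 for Tgfb1 (adjusted p = 0.450), 0.09 for Tgfb2 (0.943), 0.01 for Tgfb3 (0.965), 0.06 for Tgfbr1 (0.550) and 0.03 for Tgfbr2 (0.734). In the test of the strain by Cd8a interaction in edgeR, 0 of 6 genes passed and 0 had an unadjusted p under 0.05, beside 0 of 13520 genes (480 at an unadjusted p under 0.05).

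With distance from Cd8a spots, Tgfbi stood lower at each further step in 3 of 4 sections. It went from 253 CPM in Cd8a spots through 239 and 246 CPM at 1 and 2 steps to 227 CPM from 3 steps on in CC075F1 replicate 1, and from 288 through 259 and 209 to 165 CPM in CC075F1 replicate 2. It went from 282 through 271 and 263 to 257 CPM in CC080F1 replicate 1, and from 396 through 363 and 325 to 273 CPM in CC080F1 replicate 2. The spots from 3 steps on numbered 42, 154, 814 and 1893, and these rings were neither matched on depth nor tested. Tgfb3 in CC080F1 replicate 2 went the other way, from 66.5 CPM in Cd8a spots to 85.3 CPM from 3 steps on.

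**Figure D4:**
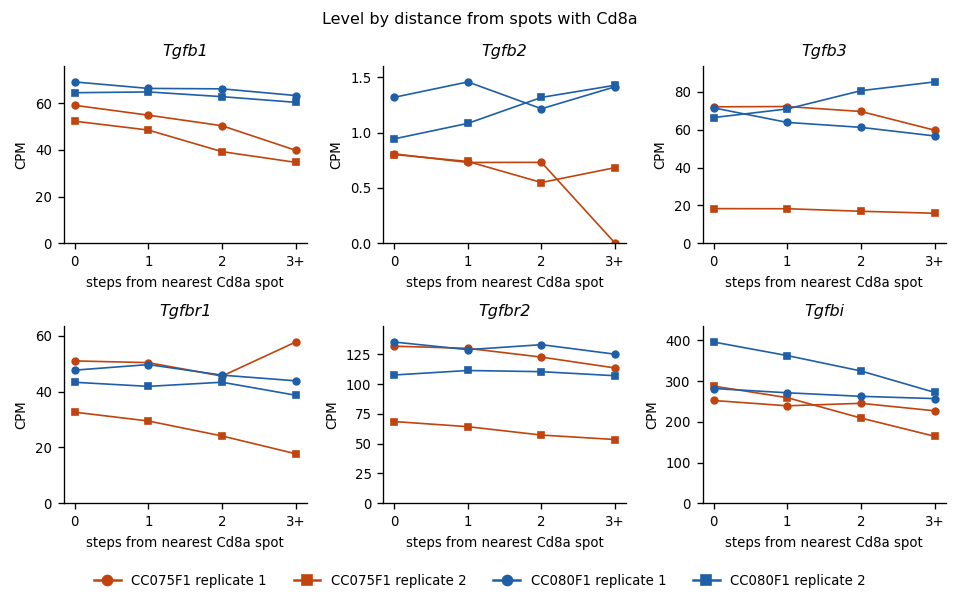
Each panel plots 1 gene, with its level in CPM against the number of grid steps to the nearest spot with Cd8a (0 is such a spot). Lines are the 4 sections. Tgfbi was lowest from 3 steps on in all 4, at 227, 165, 257 and 273 CPM.

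Of 42 other pathway genes tested, 6 were higher and 2 lower in Cd8a spots in edgeR, or 19.0% beside 3.27% of all genes. In DESeq2 4 passed, all of them common target genes, so that Eng, Nrros and Ltbp4, named next, did not. The genes that rose were Col1a2 (0.54, adjusted p = 1.04e-06 in edgeR), Acta2 (0.52, 7.15e-05), Col1a1 (0.44, 1.95e-05), Postn (0.34, 0.000363), the endothelial coreceptor gene Eng (0.24, 0.0078) and, outside the naming rule, Nrros (0.22, 0.0366), which holds latent ligand on myeloid cells. Ltbp4 (-0.18, adjusted p = 0.0278) and Fn1, the fibronectin gene (-0.12, 0.0189), fell. Both missed the threshold in edgeR without CC075F1 replicate 1 (adjusted p = 0.0765 and 0.136) or CC075F1 replicate 2 (0.307 and 0.246), and Eng did without CC075F1 replicate 2 (0.0895). In these spots 5 of 6 endothelial, 3 of 6 pericyte and smooth muscle and 3 of 8 fibroblast markers were also higher, at medians of 0.38, 0.55 and 0.26, and their part in the result was not tested. Acta2 and Postn are counted both among these markers and among the pathway genes.

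At the tissue edge, defined as spots within 3 grid steps of the nearest position off tissue, no member was called, although 2 of them stood above the interior in every section. Tgfb1 stood at the edge and in the interior at 64.6 and 54.5 CPM in CC075F1 replicate 1, 62.1 and 44.9 in CC075F1 replicate 2, 71.1 and 63.6 in CC080F1 replicate 1 and 63.7 and 61.5 in CC080F1 replicate 2. Tgfbi stood at 279.7 and 239, 344 and 239, 293 and 254, and 326 and 298 CPM in the same order. Tgfb3 stood at 66.2 and 72.9, 24.1 and 17.0, 45.6 and 68.3, and 74.9 and 82.6 CPM, with the edge above the interior in CC075F1 replicate 2 and below it in the other 3 sections.

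In edgeR with section as a term, 0 of 6 genes passed, with 3 at an unadjusted p under 0.05 and 1 in DESeq2 (Tgfbi, 0.20, adjusted p = 0.011), beside 125 of 14345 genes (0.871%; 0.788% higher and 0.0837% lower at the edge). The log2 difference was 0.17 for Tgfb1 (SE 0.05, adjusted p = 0.157), 0.21 for Tgfbi (SE 0.05, 0.117), 0.79 for Tgfb2 (0.205) and -0.16 for Tgfb3 (0.496). It was -0.04 for Tgfbr1 (0.767) and -0.01 for Tgfbr2 (0.934). Edge spots were shallower, with a median of 18032 to 30120 UMIs against 33592 to 46146 in the interior, and on spots of at least 10000 UMIs alone Tgfb1 was at 0.16 (adjusted p = 0.171) and Tgfbi at 0.20 (0.126). For the strain by edge interaction 0 of 6 passed in edgeR and 0 had an unadjusted p under 0.05, beside 16 of 15089 genes (0.106%), and Tgfb3 passed without CC080F1 replicate 2 (0.63, adjusted p = 0.010).

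**Figure D5:**
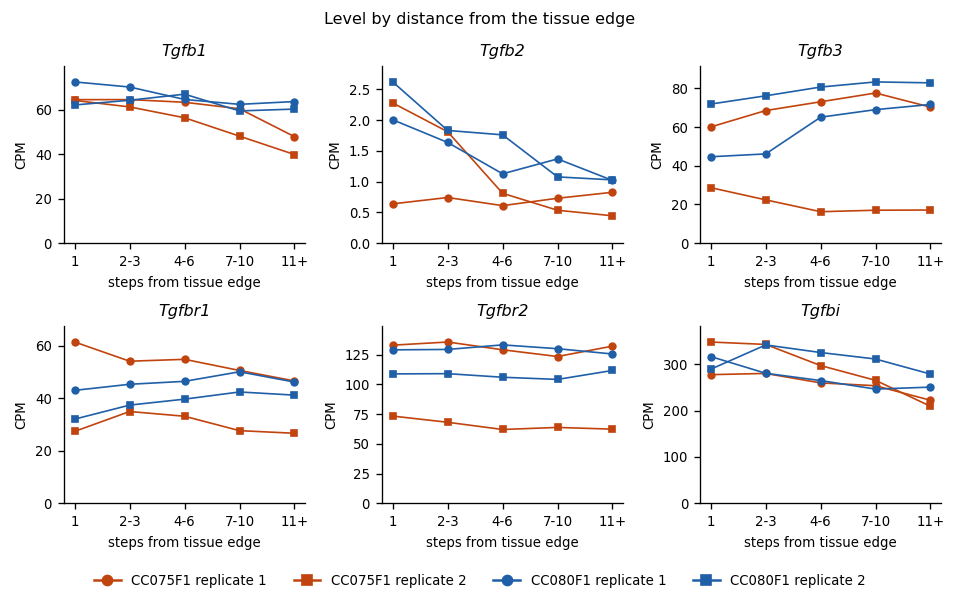
Each panel plots 1 gene, with its level in CPM against grid steps from the tissue edge in 5 bins. Lines are the 4 sections. Tgfbi went from 348 CPM at the first step to 209 CPM from 11 steps on in CC075F1 replicate 2, and Tgfb3 from 44.7 to 71.7 CPM in CC080F1 replicate 1.

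Of the 42 other pathway genes tested, 11 were higher at the edge and 0 lower, or 26.2% beside 0.871% of all genes, with a median of 0.15 beside -0.02. Of these 11, 9 were among the 16 common target genes. The largest were Lox (2.87, adjusted p = 0.016 in edgeR), Col1a2 (2.21, 0.0222), Col1a1 (2.12, 0.0363), Postn (1.96, 0.022) and Tagln (1.82, 0.0329). The other 2 were Thbs1, which activates latent ligand (1.09, adjusted p = 0.036), and Lrrc32, which holds it on the cell surface (1.11, 0.0472), named after their values were seen. Of the cell type markers, 3 of 5 neutrophil, 2 of 6 pericyte and smooth muscle and 1 of 8 fibroblast markers were higher at the edge, at medians of 1.94, 1.09 and 1.22. The fibroblast marker was Postn, and Tagln was among the pericyte and smooth muscle markers. Both are also counted among the target genes. Of 6 endothelial markers 0 passed in edgeR (6 at an unadjusted p under 0.05, 5 in DESeq2) at a median of 0.64, and the part of these cells in the result was not tested. Whether genes passed at the edge depended on the section left out, while the log2 differences of the 5 largest stayed positive. They ran from 2.57 to 3.21 for Lox, 1.97 to 2.60 for Col1a2, 1.84 to 2.56 for Col1a1, 1.72 to 2.32 for Postn and 1.60 to 2.03 for Tagln. Over all genes 1 was called without CC075F1 replicate 1, 78 without CC075F1 replicate 2, 854 without CC080F1 replicate 1 and 3 without CC080F1 replicate 2, and the largest of the 11, Lox, had an adjusted p of 0.0582, 0.018, 0.000286 and 0.109 in turn.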

How the data were processed

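RNA was captured on Visium slides from 1 fresh frozen section of each of 4 tumors, 2 per host strain, and the labels call the sections biological replicates. The deposited values are raw UMI counts per gene and spot, made by the authors with Space Ranger (1.3.1 per the file headers) on the GRCm38 (mm10) reference and not normalized, for spots under tissue alone. Seurat 5.0.1, named in the submitters' processing notes, made no value used here. Reads from Collaborative Cross haplotypes were thus aligned to a reference of the other parent. Spot barcodes name fixed positions of a grid of 4992, of which 1666 were under tissue in all 4 sections, so shared barcodes do not mark shared cells.

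The members and gene lists were chosen with earlier results of these data known. Counts were summed over spots per section, or per section and spot class, and tested with the quasi-likelihood functions of edgeR 4.0.16 under R 4.3.3, after filterByExpr and TMM scaling. Tests were two-sided, with Benjamini-Hochberg adjustment over all genes tested and a threshold of 0.05. Comparisons of spot classes and their interactions with strain kept the section as a term. Sections, not spots, were the replicates, so the study's test on shuffled spots was not used. Collagen and depth strata, Cd8a matching and the edge of 3 steps are defined beside the results. Distances in steps are on the Visium grid.

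All 6 members were named in every comparison, with up to 5 pathway genes of the largest positive and 5 of the largest negative log2 difference among those called, and the 3 genes most like each member among those of at least 10 CPM in every section. Likeness used Pearson residuals with a dispersion parameter theta of 100. Alternatives covered scaling, DESeq2 1.42.0, filters, each section left out, spot subsets and other class definitions. Those for single collagen types and the direct comparison of types were added after the data were seen. The pipeline was tested on simulated data with known changes. Promoter windows came from RefSeq on GRCm38.p6. Section totals ran from 82594649 to 146460975 UMIs. A count of 3 UMIs, the upper limit for a gene at 0, was 0.0205 to 0.0363 CPM.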

Additional observations from a re-analysis of the deposited data

How the results depend on the processing

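With 2 sections per strain, the numbers of calls moved widely. Over all genes the strain comparison gave 14 calls, against 40 with library size alone, 480 with no filter, 204 in DESeq2, 9 in spots low in collagen and 11 to 207 with 1 section left out. The collagen comparison gave 321, against 566 with library size alone, 796 with no filter, 1092 in DESeq2, 143 in interior spots, 1309 for collagens V and VI, 3285 for collagen IV, 1420 for Col1a1 and Col1a2, 8 with spots ranked without depth strata and 0 to 1954 with 1 section left out. The comparison of collagen types gave 1299, against 542 in DESeq2 and 404 to 1103 with 1 section left out. The Cd8a comparison gave 423, against 692 with no filter, 98 in DESeq2, 254 with matching on collagen and edge as well and 105 to 440 with 1 section left out. The edge comparison gave 125, against 683 with no filter, 611 in DESeq2, 237 without muscle, keratinocyte and adipocyte spots, 39 with 5 steps, 266 with the outer boundary alone, 75 in spots of at least 10000 UMIs, 34 in spots low in collagen and 1 to 854 with 1 section left out. The strain interactions moved from 0 to 2 with no filter and 0 to 194 with 1 section left out (collagen), from 98 to 41 with no filter and 18 to 417 (collagen type), from 0 to 1 with library size alone, 6 with no filter and 1 to 24 (Cd8a), and from 16 to 532 with no filter, 29 without muscle, keratinocyte and adipocyte spots and 1 to 501 (edge). The cause of these moves was not tested. Library size alone also shifted the split of calls to 371 higher and 103 lower for Cd8a, against 226 and 197, and to 696 and 559 for collagen type, against 598 and 701.

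For the members, Tgfb3 and Tgfbr2 missed the threshold in the collagen comparison in interior spots (0.69, adjusted p = 0.0536 in edgeR, and 0.25, 0.0805), and Tgfbr2 also for the top against the bottom 50% of spots (0.17, 0.0583) and without depth strata (0.26, 0.0654). The sign of a value that had not passed turned under library size alone for Tgfb1 (-0.31), Tgfbr1 (-0.14) and Tgfbi (-0.19) between strains, for Tgfbi with collagen (0.14), for Tgfbr1 (0.025) and Tgfbr2 (0.053) at the edge, for Tgfb1 (0.00059) and Tgfbi (0.0018) in the strain by collagen interaction and for Tgfbr2 (0.11) in the strain by edge interaction. It also turned for Tgfbi with collagen IV (0.25), with Col1a1 and Col1a2 (0.36) and without depth strata (0.022), for Tgfb3 at Cd8a spots in DESeq2 (-0.011) and without matching (-0.023), for Tgfbr1 (-0.074) and Tgfbr2 (-0.11) with at least 2 Cd8a UMIs, and for Tgfbr1 with an edge of 5 steps (0.0089). Tgfb3, called with the 3 collagens, was at -0.11 with Col1a1 and Col1a2.

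With 1 section left out, values that had not passed turned sign between strains for Tgfb1 (-0.14 to 0.15), Tgfb3 (-1.43 to 0.051), Tgfbr1 (-0.016 to 0.27), Tgfbr2 (-0.32 to 0.19) and Tgfbi (-0.17 to 0.41), with collagen for Tgfbi (-0.13 to 0.12), between collagen types for Tgfbr1 (-0.011 to 0.10), at Cd8a spots for Tgfb3 (-0.047 to 0.060) and at the edge for Tgfbr1 (-0.10 to 0.0061) and Tgfbr2 (-0.027 to 0.0044). In the strain by collagen interaction they ran from -0.37 to 0.29 for Tgfb1, -0.11 to 0.11 for Tgfbr1, -0.0077 to 0.15 for Tgfbr2 and -0.43 to 0.36 for Tgfbi, and for collagen type from -0.094 to 1.06 for Tgfb2 and -0.25 to 0.039 for Tgfb3. In the strain by Cd8a interaction they ran from -0.27 to 0.33 for Tgfb3, -0.066 to 0.029 for Tgfbr1, -0.13 to 0.088 for Tgfbr2 and -0.29 to 0.12 for Tgfbi, and in the strain by edge interaction from -0.83 to 0.93 for Tgfb2 and -0.0060 to 0.11 for Tgfbi. Where this left a strain with 1 section, that section was assumed to vary like the others.

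Sections of the 2 strains share replicate numbers, which the labels do not tie to a common slide or day. Deviations from the strain means correlated at 0.165 between same-numbered sections over 15572 genes. This is a single value, because the deviations of the 2 sections of a strain are equal and opposite. The edgeR fit with the replicate block called 287 genes between strains but 0 of the 6 described here, with Tgfb3 at -0.67 (adjusted p = 0.468). At 5000 and 20000 UMIs per spot, Tgfb3 was seen in 9.26% and 30.5% of the spots of CC075F1 replicate 2, against 25.6% to 30.8% and 67.5% to 73.3% in the other sections. Depth limits Tgfb2 most, at 62 to 150 UMIs per section.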

Other observations

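For Fn1, the fibronectin gene, the difference between collagen types itself differed between the strains in edgeR, in a comparison added after the data were seen. Fn1 stood on the Col3a1 and Col1 sides at 383 and 265 CPM in CC075F1 replicate 1 and at 291 and 221 CPM in CC075F1 replicate 2. It stood at 440.1 and 484 CPM in CC080F1 replicate 1 and at 774 and 671 CPM in CC080F1 replicate 2. The Col3a1 side was thus above in both CC075F1 sections and in CC080F1 replicate 2, and below in CC080F1 replicate 1. The log2 difference of the strains was 0.49 (SE 0.10, adjusted p = 0.0422), and without CC080F1 replicate 1 it was 0.32 (adjusted p = 0.585). It also missed the threshold with library size alone (0.43, adjusted p = 0.0773) and with no filter on low counts (0.49, adjusted p = 0.101).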
